A study of Schizosaccharomyces pombe with 6 samples.

Results

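Hsp90 (hsp90, also called swo1), the genes of its partner proteins and a gene named sgt1 were followed in fission yeast cells that lack isp7. The genes were taken by symbol from the annotation of the array: hsp90, sti1, cns1, wos2, cdc37, aha1 and sgt1. Of these 7 genes, 6 had a probe set named for that gene alone, among 2899 named *Schizosaccharomyces pombe* genes measured by 2917 probe sets. The aha1 gene, whose protein stimulates the ATPase of Hsp90, had no such probe set and was not analysed here. The set was chosen by the log2 changes between these same null and wild-type arrays: sti1 and sgt1 had come up earlier among the genes that are lowest in the null strain, and the remaining members are hsp90 itself and genes of its co-chaperones. The values of the members in this comparison are therefore given as a description, with no test.

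The samples were 3 arrays of an isp7+ null strain and 3 arrays of wild type. Both strains were grown at 30 °C to mid-log phase in Edinburgh minimal medium with 5 g/L ammonium chloride, and total RNA was hybridized to Affymetrix arrays that carry probe sets for *S. pombe* and for budding yeast (*Saccharomyces cerevisiae*). Isp7 is a predicted dioxygenase of the kind that uses iron and 2-oxoglutarate, and the series asks how its loss bears on amino acid uptake and on signalling by the nutrient-responsive kinase TOR. The labels give neither the construct that replaced isp7 nor the further markers of the strains.

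Hsp90 is an abundant cytosolic chaperone that works late in folding, on kinases and other proteins close to their final shape. Clients arrive from Hsp70 through Sti1, a scaffold that holds both chaperones at once. Cdc37 brings protein kinases, Cns1 is an essential co-chaperone with tetratricopeptide repeats, and Wos2, the p23 protein, binds the closed ATP-bound form late in the cycle. In fission yeast the chaperone was found through the mitotic kinase Wee1: swo1 mutants suppress the effects of overproducing that kinase. An allele of the same gene is known as git10, from a screen for glucose repression through cAMP.

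The name sgt1 needs care. In budding yeast and humans, SGT1 is also the name of an Hsp90 co-chaperone with a CS domain, and in *S. pombe* the member of that family is Git7. The *S. pombe* gene that carries the symbol sgt1 (SPAC1002.10C) is related to the human protein ecdysoneless, once named hSGT1 for its suppression of a budding yeast gcr2 mutant, and has been linked to carbohydrate metabolism. The annotation tables used here give symbols and no products, so sgt1 is described below as a gene of that name and not as a co-chaperone. The git7 gene is reported beside it. The annotated gene is 2007 bases long for sgt1 and 1375 bases for git7.

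The values are log2 signals, so a difference of 1 is a 2-fold change. The deleted gene, isp7, stood at 6.02, 6.38 and 6.17 in the null arrays, against 11.70, 11.63 and 11.55 in the wild-type arrays. Arrays of a group correlated at 0.998 to 0.999 and arrays of different groups at 0.973 to 0.978 over *S. pombe* probe sets. A probe set was called when its limma p, adjusted by Benjamini and Hochberg over all 2917, was under 0.05 and its change was at least 1.5-fold, 0.585 on the log2 scale. By that rule 8.60% of probe sets were called, 4.22% higher (123) and 4.39% lower (128) in the null strain. With each array centred on its median the counts were 154 higher and 94 lower, and after a correction for gene length they were 123 higher and 89 lower. By the adjusted p alone, 70.7% were past the threshold, 29.3% higher and 41.3% lower, and 72.9% had an unadjusted p under 0.05. The median change of all *S. pombe* probe sets was -0.05.

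All 6 measured members were lower in the null strain, by amounts from 0.15 to 1.33 on the log2 scale, and for each of them every null array lay below every wild-type array. Groups that do not overlap were found for 76.1% of all *S. pombe* probe sets, and for 45.2% with the null arrays below. The median change of the members was -0.31. Sti1 and sgt1 changed by at least 1.5-fold and the other 4 did not. Of all probe sets 4.39% were called lower, by a rule that also uses the adjusted p. These counts describe genes that were picked with this contrast known. In a bulk culture, less of a transcript per cell and fewer cells that carry it cannot be told apart.

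Hsp90 itself (SPAC926.04C) had log2 values of 14.77, 14.78 and 14.80 in the null arrays, against 15.08, 15.13 and 15.06 in the wild-type arrays. The groups were separated by a gap of 0.26, wide beside an SD of less than 0.04 within either group. The means were 14.78 ± 0.015 in the null strain and 15.09 ± 0.037 in wild type (SD, n = 3 each), a log2 change of -0.31 (SE 0.030), or 1.24-fold lower. These values lie near the top of the array's range, whose highest value was 15.65. Differences may be compressed there, which was not tested. After the correction for gene length the change was -0.20.

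Sti1, the adaptor between Hsp70 and Hsp90 (SPCC645.14C), had the widest separation among the genes that encode known Hsp90 partners. It was at 12.33, 12.39 and 12.39 in the null arrays, against 13.42, 13.46 and 13.42 in the wild-type arrays. The null arrays were thus all lower by about the same amount, with a gap of 1.03 between the groups. The means of 12.37 ± 0.034 in the null strain and 13.43 ± 0.022 in wild type (SD, n = 3 each) gave a log2 change of -1.06 (SE 0.030), 2.09-fold lower. Only 8 of the 2917 probe sets had a more negative change.

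Cns1 (SPAC17A2.04C), which shares with Sti1 the repeats that hold the tail of Hsp90, did not follow it in size. Its values were 11.35, 11.34 and 11.45 in the null arrays, against 11.64, 11.74 and 11.66 in the wild-type arrays. The change was -0.30 (SE 0.041) between means of 11.38 ± 0.057 and 11.68 ± 0.051 in null and wild-type arrays (SD, n = 3 each), close to that of hsp90.

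Wos2 (SPAC9E9.13), the p23 co-chaperone, had values of 14.26, 14.28 and 14.30 in the null arrays, against 14.59, 14.61 and 14.54 in the wild-type arrays. Its change of -0.31 (SE 0.030) came from means of 14.28 ± 0.023 in the null strain and 14.58 ± 0.034 in wild type (SD, n = 3 each). Like hsp90 it lies in the upper part of the signal range.

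Cdc37 (SPBC9B6.10), the kinase-specific co-chaperone, moved least among the measured members. It stood at 11.83, 11.85 and 11.88 in the null arrays, against 12.02, 12.03 and 11.97 in the wild-type arrays. The groups were still apart, though by only 0.091, and the change was -0.15 (SE 0.030), 1.11-fold lower. With the correction for gene length it was -0.10.

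The sgt1 gene was the lowest of the members in change and in signal. It had log2 values of 7.95, 8.10 and 8.09 in the null arrays, against 9.43, 9.40 and 9.29 in the wild-type arrays, with a gap of 1.19 between the groups. The means were 8.05 ± 0.084 in the null strain and 9.37 ± 0.070 in wild type (SD, n = 3 each). The log2 change was -1.33 (SE 0.053), 2.51-fold lower, and 4 probe sets of the 2917 had a more negative change. Both means were above the background of 7.08, set at percentile 95 of the budding yeast probe sets, but the null mean is near enough to it that the size of the drop may be understated.

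**Figure D1:**
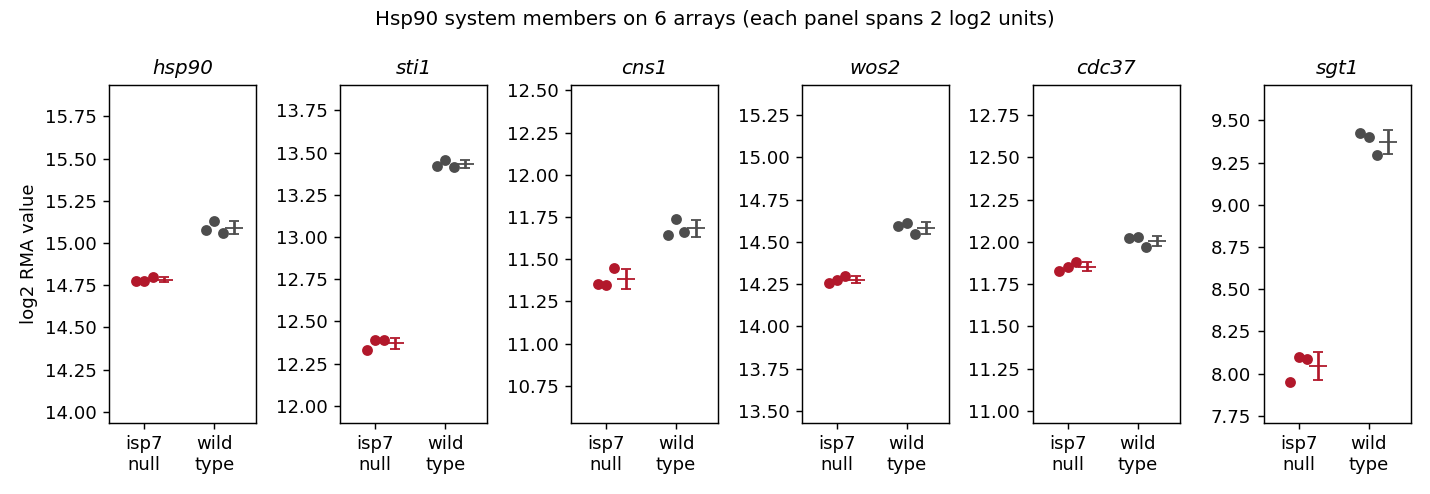
Log2 RMA values (y axis) of the 6 measured members on the 3 isp7 null arrays (red) and the 3 wild-type arrays (grey); points are arrays, bars are the mean and SD, and each panel spans 2 log2 units. The null arrays lie below the wild-type arrays in every panel, by 1.06 for sti1 and 1.33 for sgt1 and by 0.15 to 0.31 for the others.

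The members can also be set against hsp90 within each array, which removes any factor that scales a whole array. Relative to the wild-type mean of that difference, sti1 minus hsp90 was at -0.78, -0.73 and -0.75 in the null arrays, against 0.003, -0.02 and 0.01 in the wild-type arrays. The ratio of sti1 to hsp90 signal was lower in all 3 null arrays, by 1.69-fold on average. That size would carry any compression of hsp90 near the top of the range. For sgt1 the corresponding values were -1.11, -0.96 and -0.99 in the null arrays, against 0.07, -0.02 and -0.05 in the wild-type arrays, a ratio 2.03-fold lower with the same limit.

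Wos2 and cns1 kept nearly the same distance to hsp90 in both strains. The difference from hsp90 changed by 0.002 for wos2 and by 0.008 for cns1 on the log2 scale, within the spread of the arrays, whose SD was 0.010 and 0.043 in the null arrays and 0.021 and 0.022 in the wild-type arrays. This closeness depended on the processing: hsp90 is an annotated gene of 2582 bases, wos2 of 1203 bases and cns1 of 1317 bases, and after the correction for gene length wos2 minus hsp90 changed by -0.16 and cns1 minus hsp90 by -0.14. Cdc37 minus hsp90 was higher in every null array, by 0.15 on average, or by 0.10 after that correction.

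**Figure D2:**
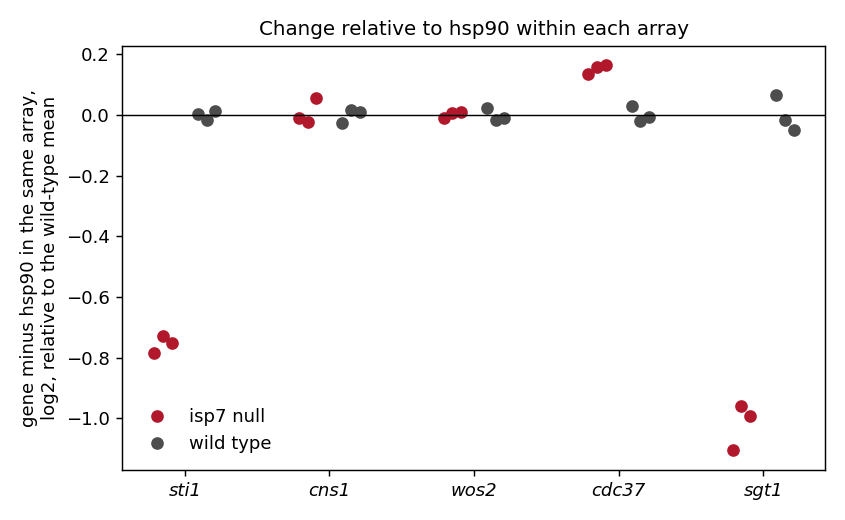
Difference between each member and hsp90 in the same array, in log2 units and relative to the wild-type mean of that difference (y axis), for 3 isp7 null arrays (red, left) and 3 wild-type arrays (grey, right) per gene. Sti1 and sgt1 are lower in all null arrays, cdc37 is higher by 0.15 on average, and wos2 and cns1 overlap with wild type.

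Changes on these arrays ran with gene length. Across the 2917 probe sets, which share the same 6 arrays, the log2 change and the length of the gene had a Spearman's rho of -0.37, so longer genes tended to be lower in the null strain. The members range from 1203 to 2582 bases, around the median of 1876 bases for all probe sets. With the length trend removed sti1 was at -0.99, sgt1 at -1.28, wos2 at -0.36 and cns1 at -0.34. Among 6 *S. pombe* control transcripts with probe sets at both ends, the excess of 3' over 5' signal was higher in the null strain for 2 and lower for 4. The differences, null minus wild type, lay between -0.11 and 0.18. The part of RNA quality in the members' values was not tested.

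**Figure D3:**
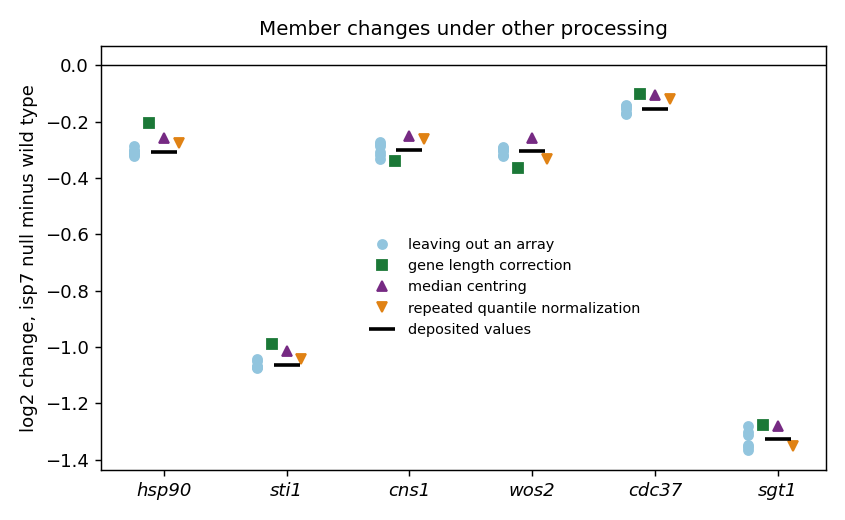
Log2 change, isp7 null minus wild type (y axis), of each measured member with the deposited values (black bar), with each array left out (light blue), after gene length correction (green), median centring (purple) or repeated quantile normalization (orange). Every value is below 0, sti1 stays between -1.07 and -0.99 and sgt1 between -1.37 and -1.28.

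The probe sets for budding yeast genes of the same names show what the array reads where no matching RNA is present. Budding yeast STI1, SGT1, CDC37, CNS1 and AHA1 had means of 6.55, 5.25, 4.46, 5.62 and 5.40 in the null arrays and of 6.63, 5.21, 4.48, 5.50 and 5.57 in the wild-type arrays. All lie below the background of 7.08, but most budding yeast probe sets do so by definition, since it is their percentile 95. None of these named probe sets changed past the limma threshold when all probe sets of the array were tested, with adjusted p from 0.235 to 0.827. With no target RNA in these cells, they give a background level and no comparison with the *S. pombe* genes.

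Genes with profiles most like those of the members were sought over the 6 arrays, by the Euclidean distance between deviations from each gene's own mean. The profile closest to hsp90 was that of wos2, at a distance of 0.033 on the log2 scale. It was followed by mcm7 (0.036), which encodes a subunit of the replicative helicase, and mcp1 (0.043). Closest to sti1 were the lysine synthesis gene lys1 (0.080), the silencing gene clr2 (0.14) and the helicase gene sen1 (0.15). The genes closest to sgt1 were the pantothenate transporter gene liz1 (0.20), sti1 (0.34) and the inositol phosphate kinase gene ipk1 (0.36). With 2 groups of arrays this measure mainly ranks genes by the size of their change.

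The members lie apart from each other in the genome of assembly ASM294v3, whose gene order was used only to find neighbours. Of the protein-coding genes up to 3 places away on either side, 22 neighbours of the 6 members were measured and 0 were called in limma, against 8.60% of all probe sets, with changes from -0.47 to 0.27. By the adjusted p alone 10 of them were lower and 5 higher, against 41.3% and 29.3% of all. Negative changes were found for 13 of the 22, against 1701 of all 2917 probe sets. Around sgt1 all 5 measured neighbours had negative changes, from -0.34 to -0.01, and 4 of them were lower by the adjusted p. All 4 around wos2, from -0.47 to -0.16, and all 2 around sti1 were negative and lower by the adjusted p. Negative changes were found for 0 of 3 around hsp90, 0 of 4 around cns1 and 2 of 4 around cdc37. These counts were made after the values had been seen.

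Further Hsp90 co-chaperones and the complexes that work with the chaperone moved in both directions and by less than 1.5-fold. They include the ATPases of R2TP and the TTT complex, which together help to assemble large kinases of the PIKK family, and adaptors such as Git7. Of 12 such genes 10 were measured: 0 rose and 0 fell by the limma rule for a call, against 4.22% and 4.39% of all probe sets. With the adjusted p alone 6 were lower and 2 higher, against 41.3% and 29.3% of all probe sets, and 9 had an unadjusted p under 0.05, against 72.9%. The median change was -0.12, against -0.05 for all probe sets. SPBC3F6.01C and sgt2 were in the list and were not analysed here.

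The git7 gene, the *S. pombe* member of the Sgt1 co-chaperone family, was at 11.93 ± 0.038 in the null strain and 11.85 ± 0.033 in wild type (SD, n = 3 each). Its log2 change of 0.08 (SE 0.032) had a limma adjusted p of 0.0678, and under other processing it lay between 0.05 and 0.13. The direction of the point estimate was thus opposite to that of the gene named sgt1, whose change was -1.33.

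The AAA+ ATPase gene rvb1 had the most negative change in this list, with 12.66 ± 0.018 in the null strain and 13.15 ± 0.0046 in wild type (SD, n = 3 each), a difference of -0.50 (SE 0.025, limma adjusted p = 8.24e-06). Its partner gene rvb2, which encodes the other ATPase of the same ring, had a change of -0.13 (SE 0.028, limma adjusted p = 0.00355). Wis2, a cyclophilin co-chaperone, was at 14.13 ± 0.0039 in null arrays and 14.58 ± 0.036 in wild-type arrays (SD, n = 3 each), a change of -0.45 (SE 0.029, limma adjusted p = 1.54e-05).

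In the TTT complex, tel2 and tti2 were higher in the null strain. Tel2 changed by 0.28 (SE 0.041, limma adjusted p = 0.000658) and tti2 by 0.25 (SE 0.034, limma adjusted p = 0.000468). The third subunit gene, tti1, had a value of -0.08 (SE 0.080, limma adjusted p = 0.387), with means of 6.43 in the null strain and 6.51 in wild type that are both below the background, so no change could be read from it. The remaining genes were tom70, a mitochondrial import receptor, at -0.18 (SE 0.037), asa1 at -0.15 (SE 0.044), and rng3, a myosin chaperone, at -0.10 (SE 0.033), or 0.001 after the gene length correction.

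**Figure D4:**
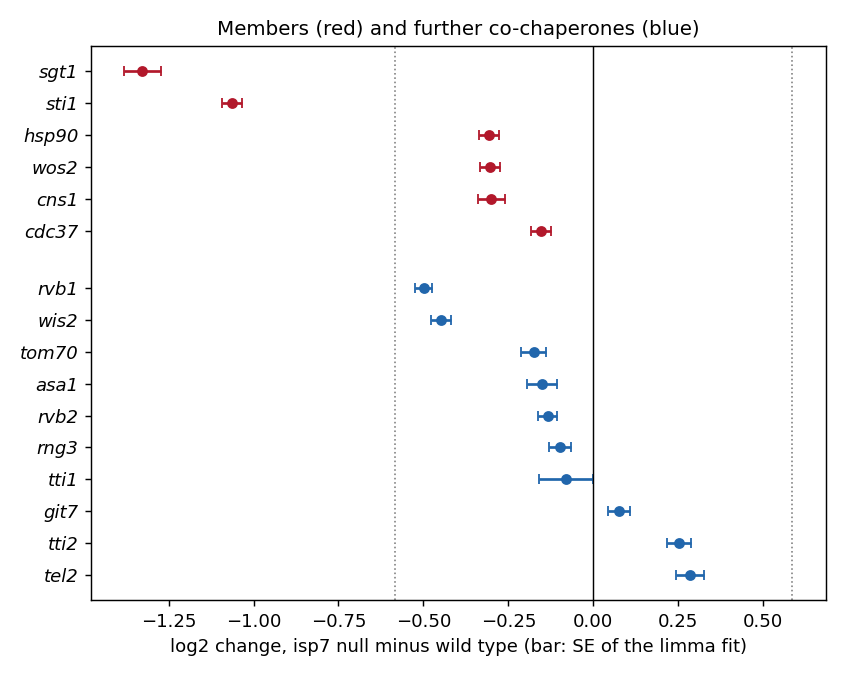
Log2 change, isp7 null minus wild type (x axis), of the 6 measured members (red) and 10 further co-chaperone genes (blue); bars are the SE of the limma fit and dotted lines mark 1.5-fold. Sti1 and sgt1 alone lie beyond the dotted lines, and git7, tti2 and tel2 lie above 0.

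A list built around the Hsp70 system was lower in most of its measured genes. Cytosolic Hsp70 hands clients to Hsp90, but the list also holds chaperones of mitochondria and other compartments, a small heat-shock protein and heat shock factor. Of 18 measured, 3 fell and 0 rose by the limma rule, against 4.39% and 4.22% of all probe sets. By the adjusted p alone 14 were lower and 3 higher, against 41.3% and 29.3% of all, and 17 had an unadjusted p under 0.05, against 72.9%. The median change was -0.34, against -0.05 for all probe sets. The genes that fell were hsp16 (log2 change -1.02, SE 0.084, limma adjusted p = 4.39e-05), a small heat-shock protein gene, mas5 (-0.77, SE 0.036, limma adjusted p = 7.03e-06), which encodes a J-domain partner of Hsp70, and ssc1 (-0.67, SE 0.031, limma adjusted p = 6.49e-06), the gene of mitochondrial Hsp70. After the gene length correction ssc1 stood at -0.58, short of 1.5-fold. The cytosolic Hsp70 genes ssa1 (-0.32, SE 0.11, limma adjusted p = 0.036) and ssa2 (-0.15, SE 0.032, limma adjusted p = 0.00384) were not called. The null and wild-type arrays overlapped for ssa1.

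The gene of heat shock factor, hsf1, was named after its values had been seen. It was at 12.27 ± 0.069 in the null strain and 11.93 ± 0.070 in wild type (SD, n = 3 each), a difference of 0.34 on the log2 scale (SE 0.049, limma adjusted p = 0.000617). The 3 genes of the list that were higher by the adjusted p were hsf1, hsp9 (0.37, SE 0.045, limma adjusted p = 0.000285) and bag101 (0.26, SE 0.032, limma adjusted p = 0.000317). Negative changes were found for the other 15 of the 18 genes, against 1701 of all 2917 probe sets.

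In the CCT chaperonin, the ring complex that folds actin and tubulin, all 8 subunit genes were lower in the null strain by the adjusted p. Their log2 changes ran from -0.31 for cct1, as large as that of hsp90, to -0.12 for cct4 (SE 0.027). Each stayed below 0 with median centring, repeated quantile normalization, the gene length correction and each array left out. None reached 1.5-fold. Prefoldin, which delivers clients to CCT, was measured by 2 genes of its own, pfd5 and pfd3. Pfd5 was higher by 0.36 (SE 0.027, limma adjusted p = 2.80e-05), while pfd3 had a change of 0.04 (SE 0.042, limma adjusted p = 0.42), or -0.14 after the gene length correction. For the whole list of 10 measured genes 0 rose and 0 fell in limma, against 4.22% and 4.39% of all probe sets. By the adjusted p alone 8 were lower and 1 higher, against 41.3% and 29.3%, and 9 had an unadjusted p under 0.05, against 72.9%. The median was -0.23.

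The PIKK kinases, whose assembly depends on TTT and Hsp90, had small changes. Of 6 measured 0 rose and 0 fell in limma, against 4.22% and 4.39% of all probe sets, and 5 had an unadjusted p under 0.05, against 72.9%. The median was -0.13, but with the gene length correction it was 0.22. These genes are the longest considered, with a median of 9208 bases, so their direction depended on the scaling. The log2 change was -0.10 for tor1 (SE 0.033, limma adjusted p = 0.0287) and 0.002 for tor2 (SE 0.031, limma adjusted p = 0.959), and after the correction 0.23 and 0.32.

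Kinases and other genes tied to Hsp90 in fission yeast included 2 that rose and 1 that fell among 18 measured, against 4.22% and 4.39% of all probe sets, with a median of -0.02. The G protein subunit genes git11 (0.85, SE 0.079, limma adjusted p = 7.19e-05) and git5 (0.80, SE 0.11, limma adjusted p = 0.000589), which act in the same glucose-cAMP pathway as git7 and git10, were higher in the null strain. Pka1 (0.53, SE 0.077, limma adjusted p = 0.000676) and git1 (0.19, SE 0.042, limma adjusted p = 0.00544) of that pathway were also higher by the adjusted p, without a call. Genes of that pathway did not all move this way: the third G protein subunit gene, gpa2, was lower by the adjusted p (-0.49, SE 0.079, limma adjusted p = 0.00117). The receptor gene git3 (-0.01, SE 0.046) and the adenylate cyclase gene cyr1 (0.005, SE 0.036) had limma adjusted p of 0.805 and 0.909, and after the gene length correction stood at 0.17 and 0.27. The Wee1-related kinase gene mik1 fell, with a change of -0.89 (SE 0.11, limma adjusted p = 0.000293). Its null mean of 7.83 ± 0.23 (SD, n = 3) is near the background of 7.08, which limits the size that can be read. The wee1 gene itself was at 9.43 ± 0.049 in the null strain and 9.38 ± 0.032 in wild type (SD, n = 3 each), a change of 0.05 (SE 0.035, limma adjusted p = 0.226). Under other processing its change lay between 0.03 and 0.25.

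The core of the SCF ubiquitin ligase, which is bound by the Sgt1 co-chaperone in budding yeast, had 1 gene that rose and 0 that fell among 5 measured, against 4.22% and 4.39% of all probe sets. This was the RING subunit gene rbx1 (0.65, SE 0.036, limma adjusted p = 1.03e-05), at 0.55 and short of 1.5-fold after the gene length correction. The list's median was -0.03.

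Glycolytic enzyme genes, listed because of the gcr2 connection of the sgt1 name, showed no call in either direction. Of 11 measured 0 rose and 0 fell in limma, against 4.22% and 4.39% of all probe sets, and 1, tpi1, was past the adjusted p alone and 1.05-fold higher, with 2 at an unadjusted p under 0.05, against 72.9% of all. The changes of the list ran from -0.11 to 0.07 with a median of -0.01. Many of them stand near the top of the signal range, where differences may be compressed. The eno102 gene, with means of 7.75 in the null strain and 7.70 in wild type, is instead near the background of 7.08.

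**Figure D5:**
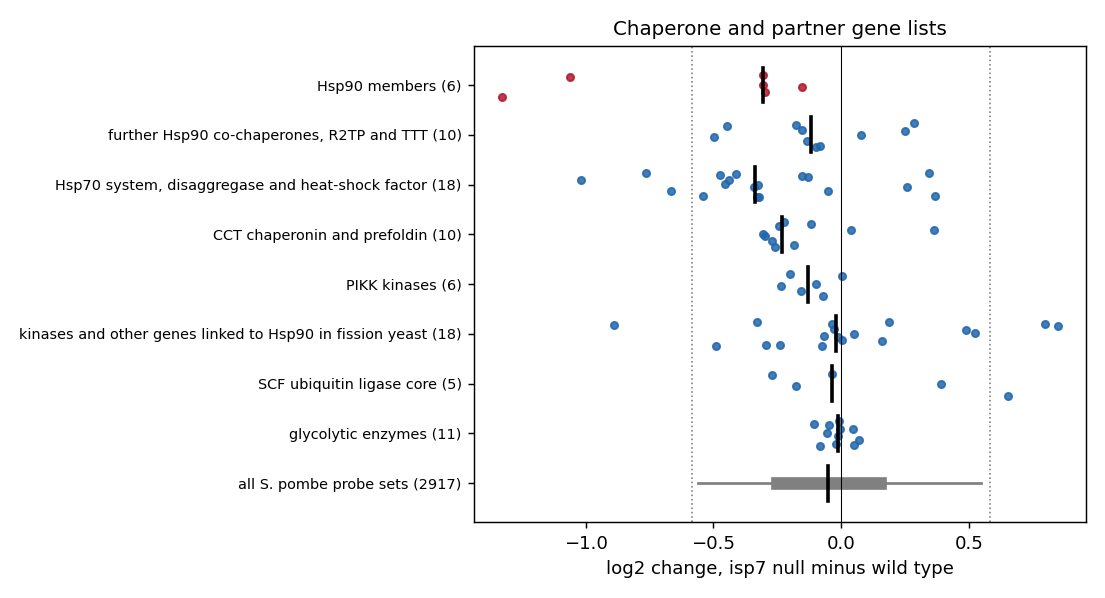
Log2 change, isp7 null minus wild type (x axis), of each measured gene in the Hsp90 members (red) and in 7 lists of related genes (blue), with the number measured in parentheses; black ticks are medians, dotted lines mark 1.5-fold, and the grey bar for all *S. pombe* probe sets spans percentiles 25 to 75, with a thin line from 5 to 95. The medians of the members and of the Hsp70 list lie at -0.31 and -0.34, against -0.05 for all probe sets.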

How the data were processed

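The authors deposited log2 values, 1 per array for every probe set. Per the submitters' processing notes they used RMA and Partek 6.5. RMA corrects background and equalizes the arrays' distributions. Differences may be compressed near background and near saturation, which was not tested. All 6 columns were used. Of 10928 probe sets, 2917 matched an *S. pombe* gene of RefSeq assembly ASM294v3, 3 of them by symbol. A gene with more than 1 probe set is given by its brightest.

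The change, isp7 null minus wild type, was fitted with limma 3.58.1 (lmFit, eBayes) in R 4.3.3 over the 2917 probe sets, two-sided, with Benjamini-Hochberg adjustment, and the code was tested on simulated data. Thresholds follow the series' design text. Gene length correction took the residuals of each array's deviations regressed on log2 gene length. Errors are SD over 3 arrays or SE of the fit. No label says whether the replicates are separate cultures. The p-values may thus reflect technical spread alone, and precision is limited by having 3 arrays per group. Batches are not given in the sources used here.

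The members and the 7 gene lists were chosen with earlier results of these data known. Named genes are isp7, all members, all measured further co-chaperones, up to 4 called genes in each direction from every other list, tor1, tor2, wee1 and the 3 closest profiles to hsp90, sti1 and sgt1. Outside that rule, hsf1, hsp9, bag101, ssa1, ssa2, psi1, pfd5, pfd3, cct1, cct4, gpa2, git1, git3, cyr1, pka1, tpi1, eno102 and the budding yeast probe sets were named after their values were seen. Sequences of the members were not used here.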

Additional observations from a re-analysis of the deposited data

How the results depend on the processing

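All members kept a negative change with median centring, repeated quantile normalization and the gene length correction. They also did so when each of the 6 arrays was left out. The rest of the 10 other processing choices alter only the fit or the probe sets used, and could not move the members' changes. Sti1 and sgt1 stayed the 2 members past 1.5-fold throughout. Leaving out an array gave changes of -1.07 to -1.04 for sti1, -1.37 to -1.28 for sgt1 and -0.32 to -0.29 for hsp90, and between 242 and 273 called probe sets. The gene length correction moved hsp90 to -0.20 and cdc37 to -0.10, and cut the called genes of the SCF list to 0. Replicate numbers are shared by the groups, and deviations of same-numbered arrays from their group means correlated at -0.12, -0.25 and 0.11. With 3 arrays per group these values cannot decide whether same-numbered arrays were paired. With the replicate block 252 probe sets were called. The SE of sti1 was then 0.032. The medians of the kinase, SCF and glycolysis lists changed sign with median centring, to 0.03, 0.01 and 0.04, and with repeated quantile normalization, to 0.03, 0.02 and 0.02; without wild type replicate 2 that of the glycolysis list was 0.01, and without isp7 null replicate 1 or wild type replicate 1 that of the kinase list was 0.02 or 0.002. After the gene length correction the kinase and SCF medians were 0.19 and 0.08. Pka1, at 0.53, passed 1.5-fold with repeated quantile normalization (0.60), without isp7 null replicate 3 (0.60) and without wild type replicate 1 (0.59), and psi1, at -0.54, without isp7 null replicate 1 (-0.60). The causes were not tested. The search for heat-shock elements in promoters was not run, since it needs sequences that were not used here. The values of hsp90, wos2 and many glycolytic genes near the top of the range, and of sgt1, mik1, eno102 and tti1 near background, limit the sizes that can be read.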
